A study of Mus musculus with 10 samples.

Results

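Plasmacytoid dendritic cells are described here through 8 of the 27179 genes in the count table, Siglech, Bst2, Ccr9, Pld4, Tcf4, Irf8, Spib and Cox6a2, which were measured in effector memory (EM) γδ T cells from the spleen. The 8 genes were named as a marker list of this cell type, by symbol and not by a threshold on their values, and all 8 were found in the table. RNA-sequencing of EM γδ T cells was performed on 5 mice pre-exposed to *P. chabaudi*, a rodent malaria parasite, and on 5 naïve mice, with 1 library per mouse. The pre-exposed mice were female C57BL/6 mice infected intravenously with 50000 infected red blood cells at 6 to 8 weeks of age. The naïve mice were female C57BL/6 mice that received no parasites. Both groups were given the same drugs, chloroquine at 10 mg/kg with pyrimethamine on day 14 followed by medicated drinking water for 5 days. Spleens were taken 12 weeks after drug treatment, and the cells were sorted as CD3+ γδTCR+ CD62L- CD44+ without restimulation. The comparison asks how the resting EM γδ T cell transcriptome of pre-exposed mice differs from that of naïve mice.

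Plasmacytoid dendritic cells are bone marrow-derived cells of blood, spleen and lymph nodes that carry neither CD3 nor a T cell receptor. They sense nucleic acids in endosomes through TLR7 and TLR9, and are known for releasing large amounts of IFNα and IFNβ. Their development and identity depend on the E protein TCF4, with IRF8 and SPIB as further transcription factors, and in mice they are recognised by Siglec-H and BST2 on the surface.

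Total counts were 8747888 to 22542832 per library in pre-exposed mice and 6587199 to 19993444 in naïve mice. Levels are given as CPM, a gene's counts relative to the size of its library, which was scaled by the trimmed mean of M values (TMM). Immunoglobulin genes took 0.345% to 6.68% of the counts in pre-exposed mice and 0.0845% to 0.737% in naïve mice, and pre-exposed mice 1 and 2 had the highest shares. The library of pre-exposed mouse 5 stood apart, since its 10 most abundant genes held 24.7% of its counts, against 5.61% to 9.58% in pre-exposed mice 1 to 4 and 6.62% to 10.2% in naïve mice. The sample descriptions give an index pair for pre-exposed mice 1 and 5 and for the 5 naïve mice, but not for pre-exposed mice 2 to 4. Protein-coding genes of the mitochondrial genome took 0.789% to 1.79% of the counts in these 3 mice, 5.26% and 9.40% in pre-exposed mice 1 and 5, and 3.99% to 6.53% in naïve mice. Of the T cell receptor genes, Trdc, the δ chain constant region, was at 1141, 2271, 3082, 1875 and 3626 CPM in pre-exposed mice 1 to 5, against 3386, 3873, 2299, 2207 and 1826 CPM in naïve mice 1 to 5. Trac, the α chain constant region, was at 317, 507, 406, 389 and 270 CPM in pre-exposed mice 1 to 5, against 137, 127, 228, 216 and 131 CPM in naïve mice 1 to 5. Every pre-exposed mouse was thus above every naïve mouse in Trac, as for 2.77% of all genes tested. Of 6 genes of αβ T cells, Trac was the only 1 called higher in the test described below (edgeR adjusted p = 0.0221, background 5.12%). Its call was lost without pre-exposed mouse 2 or naïve mouse 1, 2 or 5 (edgeR adjusted p of 0.0521 to 0.0790). Trdc was named here after its values were seen. The purity of the sort was not tested.

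Of the 8 genes, 5 were higher in pre-exposed mice and 0 were lower, at an adjusted p under 0.05 in edgeR's quasi-likelihood test with Benjamini-Hochberg adjustment over 12655 genes. Over all genes tested, 5.12% were called higher and 1.18% lower. The 5 genes that rose were Siglech, Pld4, Irf8, Tcf4 and Bst2. Spib did not pass the test, and neither did Ccr9 or Cox6a2. In bulk RNA such as this, a change in the number of cells of a type and a change in RNA per cell cannot be told apart. The median log2 fold change of the 8 genes was 1.73, and that of all genes tested was 0.02. In pre-exposed mice 1 to 4, each of the 5 called genes lay above every naïve mouse, as did 6.68% of all genes tested. In pre-exposed mouse 5, only Tcf4 of these 5 did, and Tcf4 was thus the only one of the 8 genes whose groups did not overlap, which held for 2.77% of all genes in the higher and 2.17% in the lower direction. The count of called genes depended on single mice. Without pre-exposed mouse 2 it was 0, and 0.588% of all genes were then called higher. At an unadjusted p under 0.05, 6 of the 8 genes and 12.1% of all genes were higher there. Without pre-exposed mouse 5 it was 6, with Spib added, and 9.69% of all genes were called higher. Without naïve mouse 1 it was 1 (1.00% of all genes), without naïve mouse 2, 4 or 5 it was 2 each (1.43%, 1.81% and 2.27% of all genes), and without naïve mouse 3 it was 3 (3.07% of all genes), so that calls fell over the whole table in these fits.

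**Figure D1:**
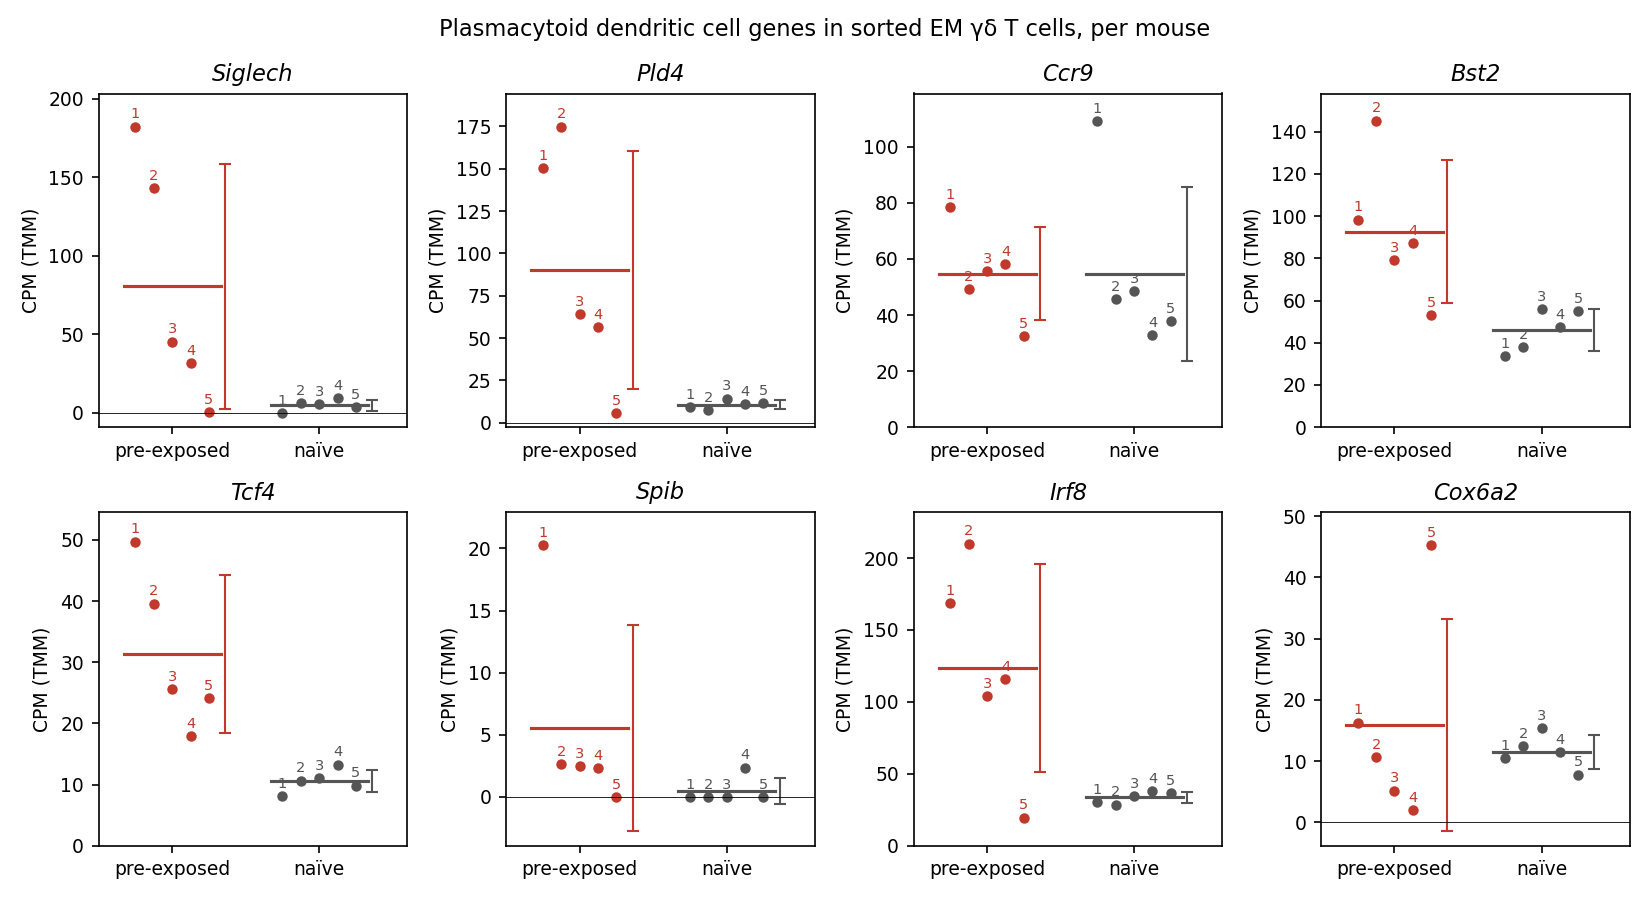
Level of each of the 8 genes in CPM (TMM-scaled, linear axis, 1 panel per gene), with 1 numbered point per mouse, pre-exposed mice on the left and naïve mice on the right. Horizontal lines are group means and bars are ± SD (n = 5 each). Siglech, Pld4, Irf8 and Bst2 were above every naïve mouse in pre-exposed mice 1 to 4 but not in mouse 5, Tcf4 was above in all 5, and Ccr9 and Cox6a2 overlapped.

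The sequences around the transcription start of 5 of the genes are shown because 4 of them (Siglech, Pld4, Irf8 and Bst2) rose together while Ccr9 did not. Each runs from 250 bases before to 50 bases after a start in RefSeq on GRCm38.p6, and 6 of the 8 genes had an entry. Capitals mark matches on either strand to the E-box letters CAGCTG or CAGGTG, which E proteins such as TCF4 bind, to an ETS-IRF composite motif (GGAA, any 2 bases, then GAAA), or to an IRF motif (GAAA, any 2 bases, then GAAA).
Siglech, chr7:55767934-55768233, plus strand: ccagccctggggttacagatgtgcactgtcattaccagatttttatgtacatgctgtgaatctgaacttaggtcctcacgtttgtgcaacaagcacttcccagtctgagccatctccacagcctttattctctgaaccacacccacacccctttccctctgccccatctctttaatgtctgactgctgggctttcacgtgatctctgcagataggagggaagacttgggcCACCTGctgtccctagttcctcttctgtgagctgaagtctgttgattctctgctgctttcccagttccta
Pld4, chr12:112760405-112760704, plus strand: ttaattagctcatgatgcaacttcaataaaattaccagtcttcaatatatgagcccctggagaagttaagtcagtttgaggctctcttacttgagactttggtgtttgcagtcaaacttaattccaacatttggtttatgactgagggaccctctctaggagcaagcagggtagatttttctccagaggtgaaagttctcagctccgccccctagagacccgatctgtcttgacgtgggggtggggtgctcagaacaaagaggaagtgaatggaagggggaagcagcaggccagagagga
Irf8, chr8:120736108-120736407, plus strand: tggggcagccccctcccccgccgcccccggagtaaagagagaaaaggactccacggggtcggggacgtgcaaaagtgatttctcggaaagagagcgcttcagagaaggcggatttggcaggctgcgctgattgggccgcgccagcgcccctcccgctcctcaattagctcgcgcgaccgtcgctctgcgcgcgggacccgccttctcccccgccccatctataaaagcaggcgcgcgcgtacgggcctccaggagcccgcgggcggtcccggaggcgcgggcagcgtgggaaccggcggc
Bst2, chr8:71537423-71537722, minus strand: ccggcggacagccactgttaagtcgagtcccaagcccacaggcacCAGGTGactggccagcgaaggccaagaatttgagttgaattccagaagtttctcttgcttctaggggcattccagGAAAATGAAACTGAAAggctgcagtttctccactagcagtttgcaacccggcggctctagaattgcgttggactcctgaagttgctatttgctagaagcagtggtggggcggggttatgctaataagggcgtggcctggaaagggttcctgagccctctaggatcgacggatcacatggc
Ccr9, chr9:123766961-123767260, plus strand: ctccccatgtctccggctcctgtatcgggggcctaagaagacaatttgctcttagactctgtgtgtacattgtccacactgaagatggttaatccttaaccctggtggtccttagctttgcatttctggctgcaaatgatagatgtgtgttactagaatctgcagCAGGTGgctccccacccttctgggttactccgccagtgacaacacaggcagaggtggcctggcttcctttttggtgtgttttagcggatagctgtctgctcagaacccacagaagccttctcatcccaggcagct
Siglech and Ccr9 each held 1 E-box match of the CAGGTG kind, at positions -20 to -15 and -85 to -80 from the start. Such a match was present in 20.2% of the 32851 promoters of the table, and a CAGCTG match in 16.3%. Bst2 held the same E-box letters at -205 to -200, and a pair of overlapping IRF matches at -130 to -121 and -124 to -115, which share 4 bases. The IRF motif was found in 3.44% of all promoters and the composite motif in 2.72%. Pld4, Spib and this start of Irf8 held none of the 4 sets of letters. A further Irf8 start in the table (window chr8:120738389-120738688) held 1 CAGGTG match, at -205 to -200. A match is a description of the letters only.

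The surface receptors are taken first. Siglech encodes Siglec-H, a sialic acid-binding lectin that mouse plasmacytoid dendritic cells carry and that signals through DAP12 (Entrez 233274, chr7:55768154-55779448, mm10). It was at 182, 143, 45.3, 31.6 and 0.545 CPM in pre-exposed mice 1 to 5, against 0, 6.05, 5.38, 9.33 and 3.61 CPM in naïve mice 1 to 5. These values rest on 1916, 2943, 569, 455 and 3 counts in pre-exposed mice and on 0, 117, 80, 79 and 25 counts in naïve mice. Thus 4 pre-exposed mice were above every naïve mouse, the 4 spanned a wide range among themselves, and pre-exposed mouse 5 was near the bottom of the naïve mice. The mean was 80.6 ± 78.0 CPM in pre-exposed mice and 4.88 ± 3.42 CPM in naïve mice (SD, n = 5 each). Siglech had the largest fitted change of the 8 genes in this test, with a log2 fold change of 4.07 (SE 0.94, 95% interval 2.06 to 6.07, edgeR adjusted p = 0.0264). The 0 of naïve mouse 1 allows up to 0.220 CPM (3 counts). The call was lost without pre-exposed mouse 2 (log2 fold change 3.76, adjusted p = 0.0876), and without naïve mouse 1 (0.0625), 2 (0.0613), 3 (0.0528), 4 (0.0505) or 5 (0.0601).

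Bst2 encodes BST2, also called tetherin or PDCA-1, which holds budding virions at the cell surface. In resting mice it is found mainly on plasmacytoid dendritic cells and plasma cells, and interferon induces it in many others (Entrez 69550, chr8:71534255-71537472, mm10). It was at 98.4, 145, 79.2, 87.4 and 53.2 CPM in pre-exposed mice 1 to 5, against 33.5, 37.9, 55.8, 47.3 and 54.9 CPM in naïve mice 1 to 5. Pre-exposed mouse 5 fell within the naïve mice and the other 4 lay above them. Bst2 thus differed from Siglech in that every naïve mouse expressed it well, with a mean of 92.7 ± 33.8 CPM in pre-exposed mice and 45.9 ± 9.98 CPM in naïve mice (SD, n = 5 each). The log2 fold change was 1.02 (SE 0.27, 95% interval 0.43 to 1.61, edgeR adjusted p = 0.0424). The call did not hold when any mouse other than pre-exposed 1 or 5 was left out, with adjusted p of 0.132 without pre-exposed mouse 2, 0.0689 without 3 and 0.0606 without 4, and of 0.116, 0.0975, 0.0615, 0.0942 and 0.0657 without naïve mice 1 to 5. Bst2 is a short gene model (769 bases), and after removal of each library's trend with gene length its log2 fold change was 0.41 (adjusted p = 0.520).

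Ccr9 encodes the receptor for CCL25, which most mouse plasmacytoid dendritic cells carry, and which thymocytes and gut-homing T cells, γδ T cells among them, express as well (Entrez 12769, chr9:123767211-123783457, mm10). Its levels were 78.5, 49.3, 55.6, 58.1 and 32.5 CPM in pre-exposed mice 1 to 5, against 109, 45.8, 48.6, 32.7 and 37.7 CPM in naïve mice 1 to 5. The groups overlapped over nearly their whole range, and naïve mouse 1 was the highest of the 10. The mean was 54.8 ± 16.6 CPM in pre-exposed mice and 54.8 ± 31.0 CPM in naïve mice (SD, n = 5 each). The log2 fold change was 0.00 (SE 0.33, edgeR adjusted p = 1.00), with a 95% interval of -0.71 to 0.71. This interval does not reach the fitted value of Siglech, Pld4, Irf8, Tcf4 or Bst2, but it overlaps the interval of Bst2 (0.43 to 1.61). The difference between Ccr9 and these genes was not tested. Without naïve mouse 1 the log2 fold change of Ccr9 was 0.41 (adjusted p = 0.443).

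Pld4 encodes phospholipase D4, an endolysosomal exonuclease that degrades single-stranded nucleic acids and so limits the ligands of TLR7 and TLR9 (Entrez 104759, chr12:112760446-112768986, mm10). It was at 150, 175, 64.2, 56.5 and 5.81 CPM in pre-exposed mice 1 to 5, against 9.17, 7.24, 14.3, 10.9 and 11.4 CPM in naïve mice 1 to 5. As with Siglech, pre-exposed mice 1 and 2 were highest, mice 3 and 4 were lower but above every naïve mouse, and mouse 5 was below every naïve mouse. The mean was 90.4 ± 70.2 CPM in pre-exposed mice and 10.6 ± 2.62 CPM in naïve mice (SD, n = 5 each). Pld4 had the smallest adjusted p of the 8 genes, with a log2 fold change of 3.10 (SE 0.59, 95% interval 1.84 to 4.37, edgeR adjusted p = 0.0141). Its call was lost on leaving out 1 mouse only, pre-exposed mouse 2 (log2 fold change 2.71, adjusted p = 0.0572).

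Of the transcription factors, Tcf4 encodes an E protein (E2-2) that is required for plasmacytoid dendritic cells to form and to keep their identity (Entrez 21413, chr18:69343429-69687967, mm10). It was at 49.7, 39.6, 25.5, 17.9 and 24.2 CPM in pre-exposed mice 1 to 5, against 8.15, 10.7, 11.03, 13.2 and 9.83 CPM in naïve mice 1 to 5. Every pre-exposed mouse was above every naïve mouse, pre-exposed mouse 5 included, in which Siglech, Pld4 and Irf8 were no higher than in naïve mice. The mean was 31.4 ± 13.0 CPM in pre-exposed mice and 10.6 ± 1.85 CPM in naïve mice (SD, n = 5 each). The log2 fold change was 1.57 (SE 0.31, 95% interval 0.91 to 2.24, edgeR adjusted p = 0.0161). The call was lost without pre-exposed mouse 2 (1.47, adjusted p = 0.0652) and without naïve mouse 1 (1.49, adjusted p = 0.0524).

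Irf8 encodes IRF8, which plasmacytoid dendritic cells share with type 1 conventional dendritic cells, monocytes and B cells (Entrez 15900, chr8:120736358-120756694, mm10). It was at 169, 210, 104, 116 and 19.4 CPM in pre-exposed mice 1 to 5, against 30.2, 28.5, 34.3, 38.0 and 36.6 CPM in naïve mice 1 to 5. The naïve mice lay close together, 4 pre-exposed mice were above them all, and pre-exposed mouse 5 was below them all. The mean was 123 ± 72.1 CPM in pre-exposed mice and 33.5 ± 4.07 CPM in naïve mice (SD, n = 5 each). The log2 fold change was 1.89 (SE 0.43, 95% interval 0.98 to 2.80, edgeR adjusted p = 0.0243). The call was lost without pre-exposed mouse 2 (log2 fold change 1.58, adjusted p = 0.0881) and without naïve mouse 1 (0.0719), 2 (0.0613), 4 (0.0534) or 5 (0.0516).

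Spib encodes SPIB, an ETS family factor of plasmacytoid dendritic cells and B cells (Entrez 272382, chr7:44525995-44532087, mm10). It was at 20.3, 2.63, 2.47, 2.29 and 0 CPM in pre-exposed mice 1 to 5, against 0, 0, 0, 2.36 and 0 CPM in naïve mice 1 to 5. The underlying counts were 213, 54, 31, 33 and 0 in pre-exposed mice and 20 in naïve mouse 4, the only naïve mouse with any. A library at 0 allows up to 0.155 to 0.545 CPM (3 counts), so that Spib was detected in 4 of 5 pre-exposed mice and 1 of 5 naïve mice. The mean of 5.53 ± 8.30 CPM in pre-exposed mice, against 0.473 ± 1.06 CPM in naïve mice (SD, n = 5 each), was set largely by pre-exposed mouse 1. Spib did not pass the test, with a fitted log2 fold change of 3.99 (SE 1.22, edgeR adjusted p = 0.0567), which is no bound because of the zeros. It passed without pre-exposed mouse 5 (4.25, adjusted p = 0.0208), and without naïve mouse 4 the fitted value was 9.20 (adjusted p = 0.0577). Spib reached the filter on low counts through 4 pre-exposed and 1 naïve library, whereas each of the other 7 genes reached it in at least 4 libraries of both groups.

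Cox6a2 encodes the heart and muscle form of a cytochrome c oxidase subunit, which plasmacytoid dendritic cells also express (Entrez 12862, chr7:128205435-128206366, mm10). It was at 16.3, 10.6, 5.17, 1.94 and 45.2 CPM in pre-exposed mice 1 to 5, against 10.5, 12.5, 15.3, 11.5 and 7.80 CPM in naïve mice 1 to 5. Its order across the pre-exposed mice was unlike that of Siglech, since mouse 5, the lowest in Siglech, was by far the highest in Cox6a2. The mean was 15.8 ± 17.3 CPM in pre-exposed mice and 11.5 ± 2.75 CPM in naïve mice (SD, n = 5 each). The log2 fold change was 0.38 (SE 0.59, 95% interval -0.87 to 1.63, edgeR adjusted p = 0.737), and without pre-exposed mouse 5 it was -0.49 (adjusted p = 0.462). The gene overlaps the end of Itgad, which had 554 to 3142 counts per library in pre-exposed mice and 829 to 2896 in naïve mice, and reads in the overlap cannot be assigned with certainty. Siglech, Ccr9 and Tcf4 each overlap a long noncoding RNA (Gm39015, Gm17021 and Gm31439) that the count table does not list.

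The fitted changes can be set against the sample descriptions. With pre-exposed mice 1 and 5 alone, whose descriptions have an index pair as those of all naïve mice do, the log2 fold changes were 4.31 for Siglech, 2.95 for Pld4, 1.87 for Tcf4, 1.55 for Irf8 and 0.78 for Bst2. None of the 8 genes passed the edgeR test there (adjusted p of 0.0654 for Tcf4 to 0.261 for Bst2 among these 5), and 0.206% of all genes were called higher. At an unadjusted p under 0.05, 7 of the 8 genes and 12.9% of all genes were higher. With pre-exposed mice 2 to 4, whose descriptions lack the pair, 6 of the 8 rose, and 15.1% of all genes were called higher. For these 3 mice the style of the description and the exposure cannot be told apart. The direction of Siglech, Spib, Pld4, Irf8, Tcf4 and Bst2 was the same in both comparisons, and that of Cox6a2 was not (1.43 with mice 1 and 5, and -0.96 with mice 2 to 4), nor was that of Ccr9 (0.069 and -0.091, both close to 0). With mice 1 and 5, the rise of Siglech, Spib, Pld4, Irf8 and Bst2 rested mainly on mouse 1. Mouse 5 was at 0.545, 0, 5.81, 19.4 and 53.2 CPM in these genes, each within or below the naïve range.

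**Figure D2:**
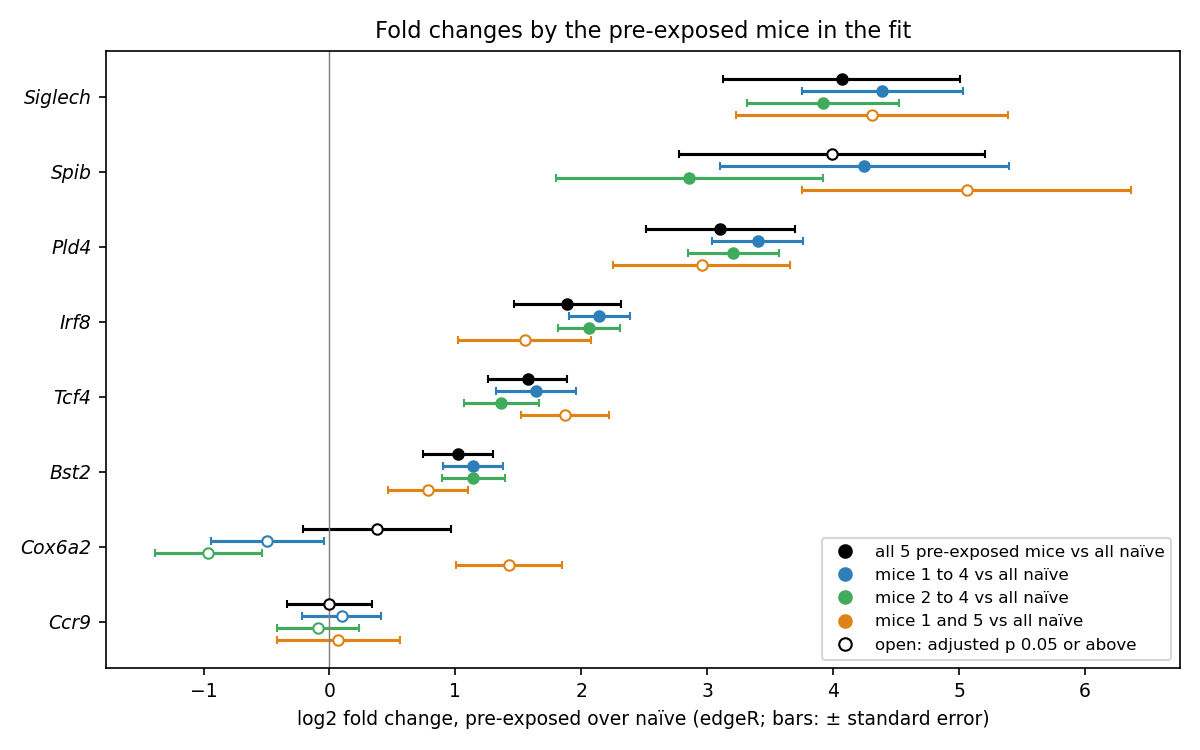
Log2 fold change of each gene, pre-exposed over naïve (x axis, edgeR, bars ± standard error), with all 5 pre-exposed mice or with some of them, always against all 5 naïve mice. Filled points have an adjusted p under 0.05. With all mice, Siglech (4.07), Pld4 (3.10), Irf8 (1.89), Tcf4 (1.57) and Bst2 (1.02) are filled, and with mice 1 and 5 alone none is.

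The 8 genes differed in level. Compared per length, as CPM per kilobase of gene model, Bst2 was the most abundant in pre-exposed mice (121 ± 43.9) and Spib the least (1.98 ± 2.98), with Pld4 (45.7 ± 35.5), Irf8 (43.7 ± 25.5), Siglech (33.6 ± 32.5), Cox6a2 (24.04 ± 26.3), Ccr9 (12.5 ± 3.77) and Tcf4 (4.09 ± 1.69) between them (SD, n = 5). In naïve mice the order was Bst2 (59.7 ± 13.0), Cox6a2 (17.5 ± 4.18), Ccr9 (12.5 ± 7.07), Irf8 (11.9 ± 1.44), Pld4 (5.35 ± 1.32), Siglech (2.03 ± 1.43), Tcf4 (1.38 ± 0.24) and Spib (0.170 ± 0.379) (SD, n = 5). Among neighbours in these orders, the ranges over mice did not overlap between Ccr9 and Tcf4 in pre-exposed mice, nor in naïve mice between Bst2 and Cox6a2, between Irf8 and Pld4, and between Tcf4 and Spib. All other neighbours overlapped.

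The excess of each gene over its naïve mean was then set against the excess of Siglech in pre-exposed mice 1 to 4, on the CPM scale. For Pld4 this ratio was 0.788, 1.19, 1.33 and 1.72, and for Irf8 it was 0.761, 1.28, 1.74 and 3.07. For Bst2 it was 0.296, 0.718, 0.824 and 1.55. The ratios were thus lowest in mouse 1 and highest in mouse 4 for these 3 genes. For Tcf4 the ratio stayed within 0.210 to 0.370, with values of 0.221, 0.210, 0.370 and 0.274. Pre-exposed mouse 5 has no such ratio, since its Siglech level was below the naïve mean.

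For each of the 8 genes the 3 tested genes with the most similar profile were found, by the smallest root mean square difference in log2 CPM over the 10 libraries after centring each gene. For Siglech these were Spi1, Tifab and Ppfia4 (differences of 0.99 to 1.01), and for Pld4 they were Cfp, Plekho1 and Lyz2 (0.39 to 0.51). For Irf8 they were Cd81, Napsa and Lgmn (0.28 to 0.35), and for Tcf4 they were H2ac6, Ctsl and Ly6c2 (0.30 to 0.31). Those of Bst2 were Fkbp2, Cmtm3 and Pmf1 (0.18 to 0.19), and those of Spib were Aqp1, Tlr11 and Msr1 (0.64 to 0.90). Ccr9 was nearest to 2810459M11Rik, Gfi1 and Dtx4 (0.26 to 0.28), and Cox6a2 to Gng5, Vps13c and Hexim1 (0.41 to 0.46). None of the 8 genes was among another's 3 nearest, and the 10 libraries behind each difference are shared.

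A further 19 genes known from plasmacytoid dendritic cells were listed, of which 14 were tested, with 5 higher and 0 lower (background 5.12% and 1.18%). Their median log2 fold change was 0.67, against 0.02 for all genes tested. Ly6d, a marker of lymphoid progenitors of these cells, was at 83.3, 66.4, 16.9, 6.73 and 4.72 CPM in pre-exposed mice 1 to 5, against 0, 0, 0.874, 3.54 and 0 CPM in naïve mice 1 to 5 (log2 fold change 5.58, SE 1.04, edgeR adjusted p = 0.0120). Ly6d was above every naïve mouse in all 5 pre-exposed mice, as were 2.77% of all genes tested. Ly6c2, one of the near-identical genes of the Ly6C antigen, was at 653, 581, 494, 286 and 475 CPM in pre-exposed mice, against 204, 196, 157, 150 and 154 CPM in naïve mice (1.53, SE 0.24, adjusted p = 0.00818), and its reads may be shared with Ly6c1. Lifr, a cytokine receptor subunit (4.47, adjusted p = 0.0225), Bcl11a, a transcription factor acting upstream of Tcf4 (3.98, adjusted p = 0.0276), and Cbfa2t3, a corepressor that partners with TCF4 (2.66, adjusted p = 0.0293), also rose. In pre-exposed mouse 5 these last 3 were at 0.182, 0.182 and 0.908 CPM, within the range of the naïve mice. The count was 2 of 14 without pre-exposed mouse 2 (0.588% of all genes) and 12 of 18 without pre-exposed mouse 5 (9.69% of all genes). The filter on low counts asks for fewer libraries when a group is smaller, so that 18 genes rather than 14 were tested without mouse 5. The added genes were near 0 CPM in naïve mice and entered through pre-exposed mice, so their calls add no support. The calls of Ly6d and Ly6c2 held with each library left out. Without pre-exposed mouse 2 the adjusted p was 0.0721 for Lifr, 0.0832 for Bcl11a and 0.101 for Cbfa2t3. These 3 calls were also lost without naïve mouse 2 (0.0645 each) or 5 (0.0540 to 0.0600), that of Bcl11a without naïve mouse 1 (0.0791) or 4 (0.0642), that of Cbfa2t3 without 1 (0.0842) or 3 (0.0553), and that of Lifr without 3 (0.0531) or 4 (0.0547).

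Tlr7, the endosomal receptor for single-stranded RNA, did not pass the test, with 38.3, 22.0, 7.80, 5.20 and 6.18 CPM in pre-exposed mice 1 to 5 against 8.15, 2.69, 3.56, 2.01 and 0 CPM in naïve mice 1 to 5 (log2 fold change 2.20, SE 0.67, edgeR adjusted p = 0.0616). The other 5 genes on the list did not reach the filter. Among these, Klk1, a kallikrein of mouse plasmacytoid dendritic cells, was at 14.9, 23.2, 7.56, 3.12 and 0.908 CPM in pre-exposed mice, against 0, 0, 0.471, 0.354 and 0 CPM in naïve mice. Klk1 and Tlr9, the endosomal receptor for unmethylated DNA, were named after their values were seen. Tlr9 was at 1.71, 0, 0.0796, 0.486 and 0 CPM in pre-exposed mice and at 0 in all naïve mice. Runx2, which plasmacytoid dendritic cells use to leave the bone marrow and which was also named after its values were seen, was at 36.05, 26.8, 34.5, 30.9 and 93.7 CPM in pre-exposed mice, against 23.3 to 56.1 CPM in naïve mice, and so was highest in mouse 5, as Cox6a2 was.

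**Figure D3:**
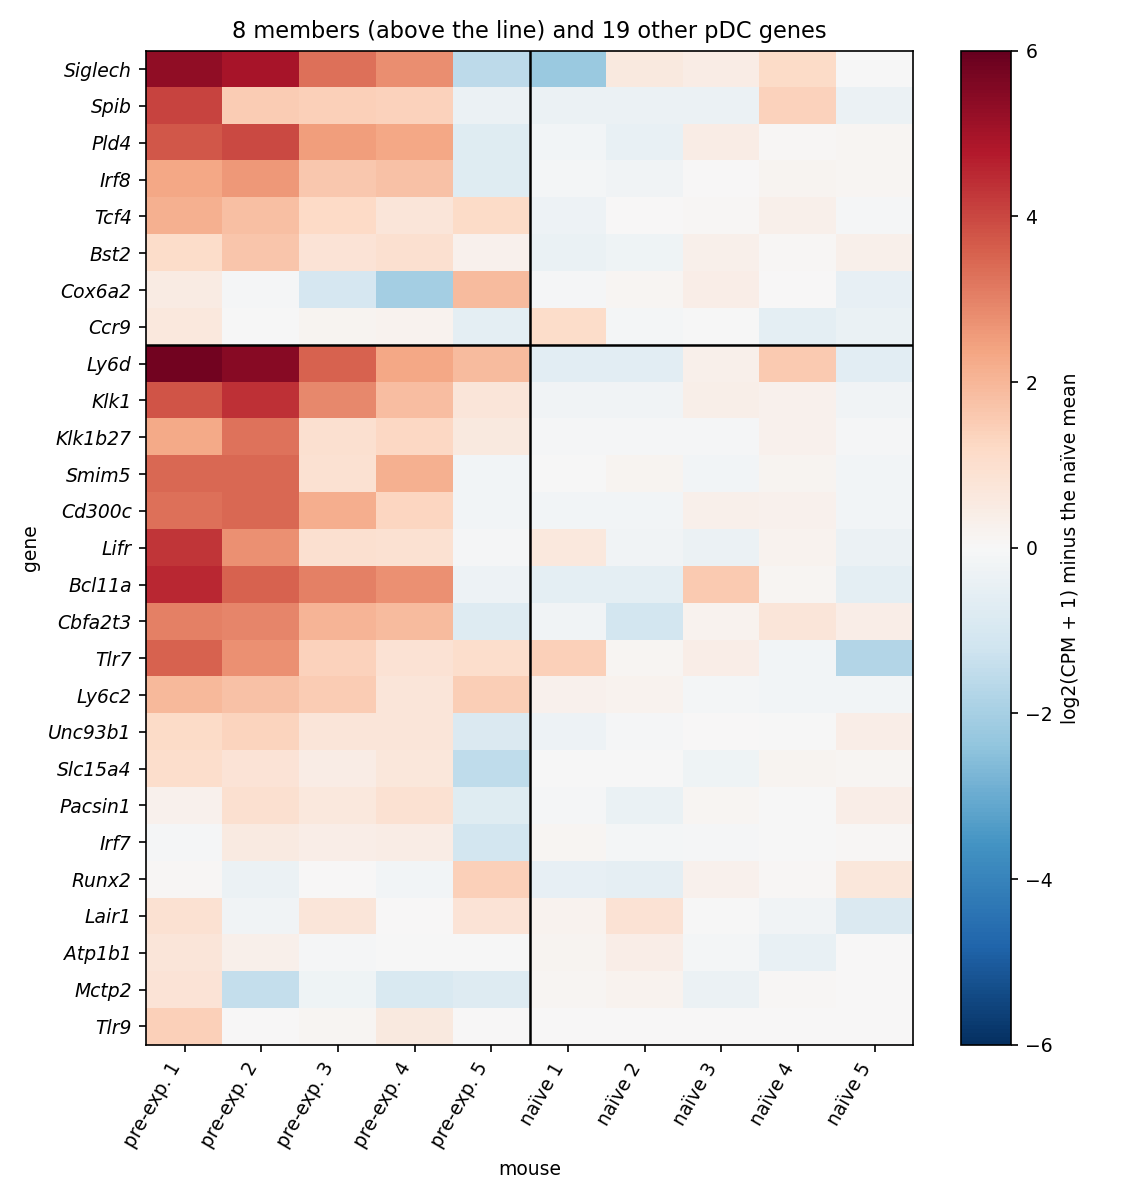
Difference of log2(CPM + 1) from the naïve mean for the 8 genes (above the horizontal line) and 19 other genes of plasmacytoid dendritic cells (below it), with 1 column per mouse, pre-exposed mice left of the vertical line. Red is above and blue below the naïve mean. Pre-exposed mice 1 and 2 are the reddest for Siglech, Pld4, Ly6d and Bcl11a, and mouse 5 is red for Tcf4, Cox6a2, Ly6d, Ly6c2 and Runx2 among others.

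The genes through which plasmacytoid dendritic cells sense nucleic acids and make interferon were examined as a list of 16, of which 10 were tested. Of these, 0 were higher and 0 lower in edgeR (background 5.12% and 1.18%), with a median log2 fold change of 0.24. The counts were 2 and 1 at an unadjusted p under 0.05, and 1 and 1 in DESeq2. Without pre-exposed mouse 5 the count was 4 higher and 1 lower (9.69% of all genes higher, and 741 of 12958 lower). Further, 1 gene was higher without pre-exposed mouse 4 (483 of 12763 genes) and 1 lower without pre-exposed mouse 1 (501 of 12811 genes). Unc93b1, the chaperone of the endosomal receptors, was at 151, 175, 113, 112 and 37.1 CPM in pre-exposed mice 1 to 5, against 54.6, 64.7, 69.4, 67.2 and 88.7 CPM in naïve mice 1 to 5 (log2 fold change 0.78, SE 0.32, adjusted p = 0.153). Its profile was that of Irf8, with 4 pre-exposed mice above and mouse 5 below every naïve mouse. The genes Ifna4, Ifna5 and Ifnb1 had no counts in any library, which allows up to 0.146 to 0.545 CPM per library (3 counts). They were named after their values were seen. Of 18 genes induced by type I interferon, all tested, 1 was higher and 0 lower, with a median log2 fold change of 0.44. With a background of 5.12% and 1.18%, this count was near that of all genes. The gene called was Oasl2 (1.46, SE 0.36, adjusted p = 0.0316). The count was 0 when pre-exposed mouse 2 or 3 or any naïve mouse was left out, 2 without pre-exposed mouse 5 (9.69% of all genes) and 3 without pre-exposed mouse 1 (1215 of 12811 genes).

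Of 14 transcription factors and receptors that govern dendritic cell development, all tested, 5 were higher and 0 lower (background 5.12% and 1.18%), with a median log2 fold change of 0.39. Besides Bcl11a and Cbfa2t3 these were Flt3, Spi1 and Batf3, a factor of type 1 conventional dendritic cells that was named after its values were seen. Flt3, the receptor that drives the development of all dendritic cells, was at 32.1, 38.2, 22.6, 30.7 and 6.00 CPM in pre-exposed mice 1 to 5, against 0, 0.155, 2.83, 1.89 and 1.16 CPM in naïve mice 1 to 5 (log2 fold change 4.51, SE 0.67, edgeR adjusted p = 0.00585), with no overlap between the groups. Such separation in the higher direction held for 2.77% of all genes tested. Spi1, which encodes PU.1, a factor of myeloid cells and B cells, was at 45.7, 61.2, 33.4, 33.4 and 1.64 CPM in pre-exposed mice, against 0, 1.24, 5.25, 6.03 and 3.32 CPM in naïve mice (3.55, SE 0.77, adjusted p = 0.0217). Id2, which opposes TCF4 and was named after its values were seen, was at 1414, 1403, 1370, 1234 and 5485 CPM in pre-exposed mice, against 1673, 1713, 1905, 1589 and 1470 CPM in naïve mice (0.38, SE 0.38, adjusted p = 0.572). The count was 1 without pre-exposed mouse 2 or naïve mouse 2 (0.588% and 1.43% of all genes), 2 without naïve mouse 1 or 5 (1.00% and 2.27%), and 3 without naïve mouse 4 (1.81%). The Flt3 call held with each library left out, and that of Spi1 was lost without pre-exposed mouse 2 (adjusted p = 0.0788) or naïve mouse 2 (0.0554). The Batf3 call was lost in 7 of these 10 fits (adjusted p of 0.0593 to 0.134).

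Close relatives of the 8 genes were compared with them, and of 15 listed 12 were tested, with 4 higher and 0 lower (background 5.12% and 1.18%, median log2 fold change 0.92). Siglecg, a sialic acid-binding lectin of B cells and dendritic cells, was at 14.7, 13.5, 15.6, 8.33 and 0 CPM in pre-exposed mice 1 to 5, against 0, 0, 0.874, 0.945 and 0.578 CPM in naïve mice 1 to 5 (log2 fold change 4.68, SE 0.82, edgeR adjusted p = 0.00904). Like Siglech, it was above every naïve mouse in mice 1 to 4 only. Cox6a1, the form of the oxidase subunit found in most tissues, was at 240, 572, 389, 455 and 558 CPM in pre-exposed mice, against 160, 162, 229, 193 and 246 CPM in naïve mice (1.16, SE 0.26, adjusted p = 0.0232). It rose where Cox6a2 did not pass the test, but the difference between them was not tested. Spi1 and Spic, the relatives of Spib, were the other genes called (Spic 2.22, SE 0.64, adjusted p = 0.0499). The count was 1 without pre-exposed mouse 2 or naïve mouse 2 (0.588% and 1.43% of all genes), 2 without naïve mouse 1 or 4 (1.00% and 1.81%) and 6 of 12 without pre-exposed mouse 5 (9.69%). The Siglecg call held with each library left out, that of Cox6a1 was lost without pre-exposed mouse 2 (adjusted p = 0.0846) or naïve mouse 1, 2 or 4 (0.0582 to 0.0734), and that of Spic was lost without any mouse other than pre-exposed 4 or 5 (0.0592 to 0.137).

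Genes of other antigen-presenting cells moved across the same mice. The sum over the 8 genes was 764, 775, 381, 371 and 181 CPM in pre-exposed mice 1 to 5, against 201, 149, 185, 165 and 162 CPM in naïve mice 1 to 5. For the 11 conventional dendritic cell genes this sum was 3137, 5475, 2617, 2093 and 337 CPM in pre-exposed mice, against 169 to 439 CPM in naïve mice. Of these, 8 of 11 rose and 0 fell (background 5.12% and 1.18%), with a median log2 fold change of 3.82, and H2-Aa, an MHC class II chain of antigen-presenting cells, rose by 4.54 on the log2 scale (edgeR adjusted p = 0.00759). The count was 4 of 11 without pre-exposed mouse 2 or naïve mouse 1, 2 or 4 (0.588%, 1.00%, 1.43% and 1.81% of all genes). It was 0 of 11 with voom and TREAT (2 of 12655 genes) and with pre-exposed mice 1 and 5 alone (0.206% of all genes). Monocyte and macrophage genes summed to 433 to 1886 CPM in pre-exposed mice and 483 to 1142 CPM in naïve mice, and 5 of the 8 tested rose (background 5.12%). Much of this sum is Ccr2, a chemokine receptor of monocytes and some T cells, named after its values were seen, which was at 310 to 615 CPM in pre-exposed mice and 442 to 988 CPM in naïve mice (log2 fold change -0.85, edgeR adjusted p = 0.0715). Without Ccr2 the sum was 1087, 1526, 710, 348 and 57.6 CPM in pre-exposed mice 1 to 5, against 40.2 to 175 CPM in naïve mice, so that pre-exposed mice 1 to 4 were above every naïve mouse. This separation depends on a gene left out after its values were seen, and is a description only. Itgam and C1qb, which stay in the sum, did not pass the test either (edgeR adjusted p = 0.0978 and 0.706). The count of monocyte and macrophage genes called higher was 1 without pre-exposed mouse 2 or naïve mouse 1 (0.588% and 1.00% of all genes), and 2 without naïve mouse 2 (1.43%). It was 3 without pre-exposed mouse 3 (342 of 12837 genes) or naïve mouse 3, 4 or 5 (3.07%, 1.81% and 2.27%), and 8 of 11 without pre-exposed mouse 5 (9.69%). Without mouse 5, 11 genes rather than 8 passed the filter on low counts. Some of those added entered mainly through pre-exposed mice, and their calls add no support.

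Plasma cell genes had a sum of 5932, 6000, 2323, 715 and 794 CPM in the pre-exposed mice, against 330 to 1083 CPM in naïve mice. B cell genes, which matter here because Spib, Irf8 and Bcl11a are also B cell genes, summed to 85.9 to 191 CPM in pre-exposed mice and 104 to 168 CPM in naïve mice. Most of this sum is Cd22 and Cd79b, named after their values were seen. They did not pass the test (log2 fold change -0.34 and 0.05, edgeR adjusted p = 0.618 and 0.930), so the sum says little about the other B cell genes. Of the 6 tested B cell genes 3 rose (background 5.12%), led by Fcrla (4.47, edgeR adjusted p = 0.0101), while Pax5 and Ebf1, which define B cells and were named after their values were seen, had no counts in any library. The 3 that rose, Fcrla, Cd79a and Ms4a1, were each highest in pre-exposed mice 1 and 2. The B cell count was 1 when pre-exposed mouse 2 or any naïve mouse was left out (0.588% to 3.07% of all genes). Pre-exposed mice 1 and 2, the highest in the 8 genes, were also the highest in the conventional dendritic cell, monocyte and plasma cell sums. The γδ T cell genes summed to 4611 to 14959 CPM in pre-exposed mice and 8400 to 11574 CPM in naïve mice, with pre-exposed mouse 1 the lowest and mouse 5 the highest of the 10. The part of these other cell types in the results for the 8 genes was not tested, and the sort on CD3 and the γδ T cell receptor applied to every sample. Without pre-exposed mice 1 and 2 together, 0 of the 8 genes were called, with log2 fold changes of 2.38 for Siglech and 1.95 for Pld4, and 3.46% of all genes were called higher. At an unadjusted p under 0.05, 5 of the 8 genes and 13.6% of all genes were higher there.

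**Figure D4:**
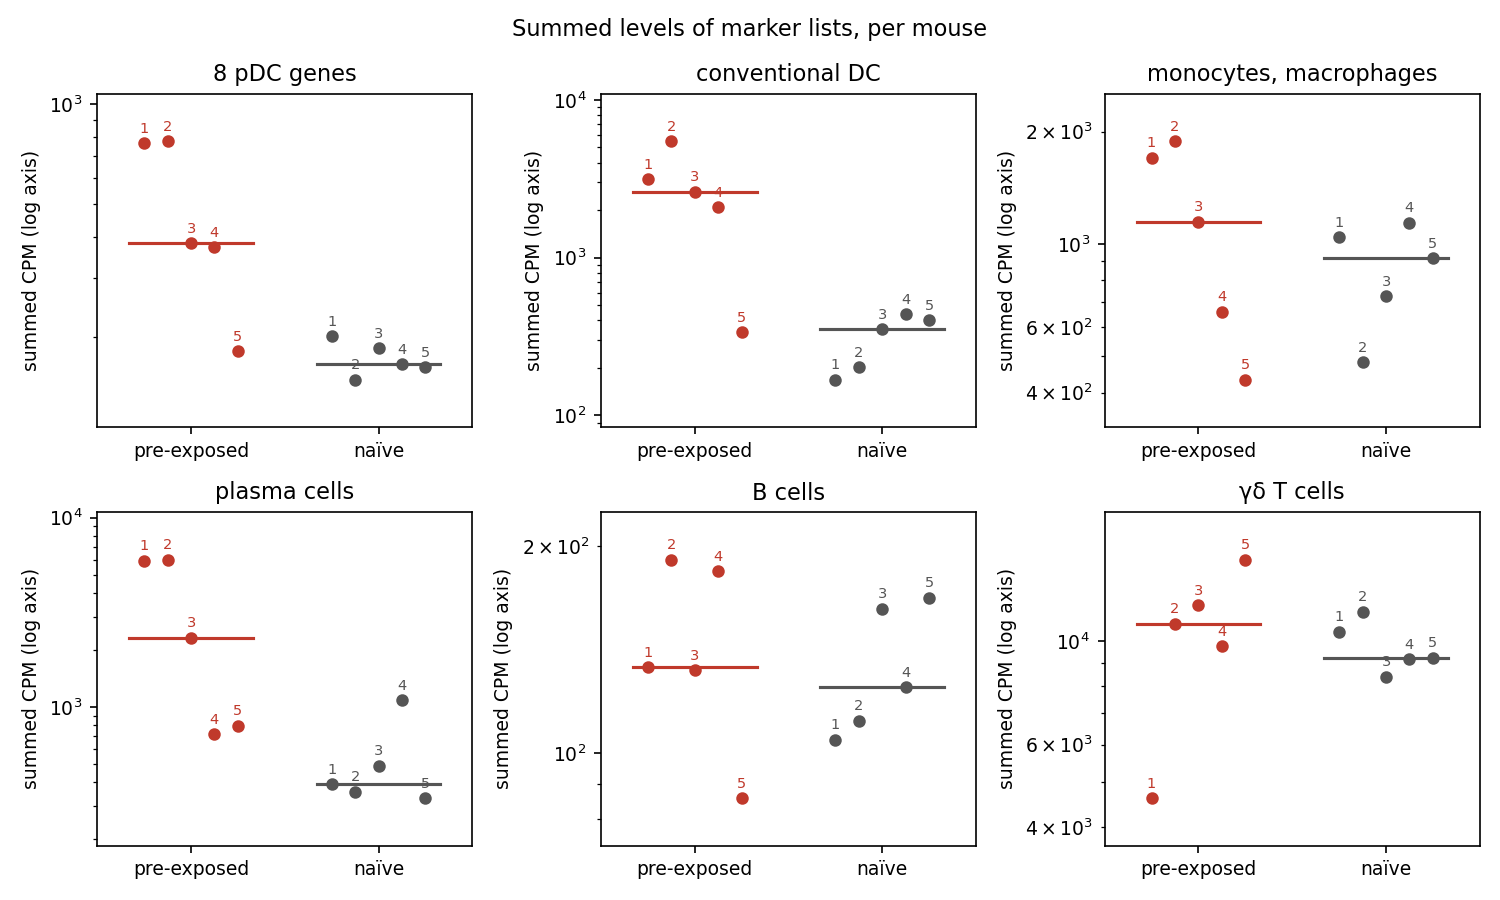
Summed CPM of the 8 genes and of 5 marker lists per mouse (log axis, 1 numbered point per mouse, lines are group medians), pre-exposed mice on the left and naïve mice on the right. The sums of the 8 genes and of the conventional dendritic cell genes in pre-exposed mice 1 to 4 (371 to 775 and 2093 to 5475 CPM) are above all naïve mice, and those of mouse 5 (181 and 337 CPM) are within the naïve range.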

How the data were processed

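EM γδ T cells of 5 pre-exposed and 5 naïve mice were analysed, with the groups and replicate numbers taken from the sample labels. The labels give the libraries as replicates of each group, and p-values measure the spread between them. Reads had been aligned to mm10 by Subread, and featureCounts gave the whole-number counts of read pairs per Entrez gene that the authors deposited without normalization. Neither its version nor its strand setting is given in the sources used here, so overlapping and antisense genes were treated as uncertain. The library kit is SMART ultra-low in the study's methods but Illumina TruSeq in the labels. Libraries of the same group differed by more than counting noise (lowest chi-square per gene 24.01).

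Of 27179 genes, 13534 passed filterByExpr. With 767 genes lacking a symbol and 112 immunoglobulin genes removed, 12655 were tested with edgeR 4.0.16 (quasi-likelihood, robust, legacy set to FALSE, TMM scaling) in R 4.3.3, with Benjamini-Hochberg adjustment at 0.05. Standard errors are the fold change over the square root of F, and 95% intervals use the fit's degrees of freedom. A count of 0 allows up to 3 counts, and such limits cover counting error only. Symbols, coordinates and promoters came from RefSeq on GRCm38.p6 (mm10), and 25275 of the 27179 IDs had a symbol. Alternatives were other scalings and filters, DESeq2 1.42.0, voom with TREAT at a fold change of 1.5 (limma 3.58.1), a replicate block, an index pair covariate, a gene length offset (loess span 0.3) and each library left out. The code was tested on simulated data. Named genes are the 8 members, the up to 4 tested genes of each list with the smallest p, and the 3 nearest profiles per member (log2 CPM with a prior count of 2). Any other gene was named after its values were seen. The members and lists were chosen with earlier results of these data known.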

Additional observations from a re-analysis of the deposited data

Results flagged for a closer look

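Dixon's ratio, the gap of the most extreme mouse to its neighbour over the range of its group of 5, was computed for 20 groups with a limit of 0.71, and 4 exceeded it, where chance gives about 1 in 20 groups of normally distributed values. CPM values need not be so distributed. A group with counts in 1 library only, as Spib in naïve mice, has a ratio of 1 by construction. The number of flags is therefore a description only. Ccr9 in naïve mouse 1 was 109 CPM, far above the other naïve mice. Spib was 20.3 CPM in pre-exposed mouse 1, far above the other pre-exposed mice, and 2.36 CPM in naïve mouse 4, the only naïve mouse with counts of it. The immunoglobulin share was 0.737% in naïve mouse 4, the highest of the naïve mice.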

How the results depend on the processing

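Siglech, Pld4, Irf8, Tcf4 and Bst2 stayed above 0 under all 15 other settings and with each library left out, and Spib did too, but their calls did not always hold. Of the 15 settings, the call was kept in 10 for Pld4, 10 for Irf8, 9 for Tcf4, 7 for Siglech and 6 for Bst2. The number of the 8 genes called higher (5) was 3 with edgeR's older dispersion method, 2 with voom, quality weights and TREAT, and 0 with voom and TREAT, with the index pair as a covariate, with pre-exposed mice 1 and 5 alone and without mice 1 and 2 together, the last chosen after seeing the data. It ranged from 0 to 6 on leaving out 1 library. The lists of other plasmacytoid genes, regulators, relatives, conventional dendritic cells and monocytes had 5, 5, 4, 8 and 5 genes called higher. With voom and TREAT each had 0. In the same order, the counts were 3, 4, 1, 7 and 3 with quality weights and 3, 0, 0, 0 and 1 with pre-exposed mice 1 and 5. With the index pair covariate they were 3, 1, 0, 1 and 1, and with the length trend removed 4, 3, 1, 5 and 2. Genes called higher and lower over the table (648 and 149) were 307 and 51 with the older dispersion method, 1008 and 342 with DESeq2, 2 and 0 with voom and TREAT, 166 and 121 with quality weights, 39 and 1 with the index pair covariate, 27 and 0 with pre-exposed mice 1 and 5, 1992 and 1911 with mice 2 to 4, and 186 and 28 with the length trend removed. They ranged from 75 to 1255 and from 6 to 741 on leaving out 1 library. The cause of these differences was not tested.

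No pairing by replicate number was seen, with correlations of -0.26 to 0.05 between same-numbered deviations and of -0.28 to 0.34 between differently numbered ones. With 5 pairs, and each group centred on its own mean, these correlations cannot exclude a pairing. With the replicate block, 45 genes were called higher and 10 lower, and 0 of the 8 genes were called (at an unadjusted p under 0.05, 6 of the 8 and 10.7% of all genes were higher).

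The log2 fold change of Ccr9 (0.00) was 0.34 with the length trend removed, -0.0077 with DESeq2 size factors, -0.0073 with DESeq2, -0.0182 with library size only, -0.0187 with no filter, -0.091 with pre-exposed mice 2 to 4 and -0.22 without mice 1 and 2, and ranged from -0.17 to 0.41 on leaving out 1 library. That of Cox6a2 was -0.51 with voom and TREAT, -1.05 with quality weights, -0.22 with the replicate block, -0.96 with mice 2 to 4 and -0.46 with the length trend removed, and ranged from -0.49 to 0.67 on leaving out 1 library. Depth limits mainly Spib, which had 0 to 213 counts per library.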
